A study of Mus musculus with 12 samples.

Results

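Adult testes were compared with adult wild-type ovaries of the mouse, gene by gene. The comparison used 5 of the 12 samples of a study of the ovarian transcription factor Foxl2, namely 3 wild-type testes and 2 wild-type ovaries, each from a single animal. The submitters' design text gives an age of 8 weeks for adult mice where it describes the ovaries and calls the testes adult. Mice were perfused with buffered saline, and RNA was taken from the whole ovary or from part of a testis, per the labels' protocols and the design text. Both groups are labelled wild type and their labels name no agent, and for the mouse strain nothing is given in the sources used here. In the fit, 3 ovaries labelled Foxl2 flox/flox x CreEBD were also present, and they contributed to the estimate of the spread, not to the means compared. They also counted where means over the adult arrays chose a gene's probe set, or the bright genes used for centring in an alternative. All 19938 genes that had a probe set naming no other gene were included. A value below is a level on the log2 scale, which the authors obtained by RMA, a procedure that removes background, equalises the arrays and combines the probes of each probe set. A difference is the mean of the testes minus the mean of the ovaries on that scale, so that 1 is a doubling, and it is given with its standard error (SE) from limma and a Benjamini-Hochberg adjusted p over all genes. A gene is called where that adjusted p is under 0.05. The SE and the adjusted p rest on 1 spread per gene that the 3 groups of the fit share. Where the ovaries lie further apart than the other arrays, they do not measure the variation among wild-type ovaries. The number of arrays limits the precision.

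The adult testis consists mostly of germ cells: stem cells divide, enter meiosis as spermatocytes, and are rebuilt as spermatids, which pack their DNA with protamines and grow an acrosome and a tail. Sertoli cells support them inside the tubules and Leydig cells make testosterone between the tubules. The adult ovary is mostly somatic, with granulosa and theca cells around a small number of large oocytes, corpora lutea left by ovulation, a vascular stroma and a surface epithelium. Whole organs were measured, so fewer cells of a type and less RNA per cell cannot be told apart in any result below, and because arrays were normalized to each other each level is relative to the whole array.

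The arrays carried the sex that their labels give. Xist, the RNA that silences an X chromosome in female cells, lay at levels of 3.28, 3.40 and 3.20 in the testes and 7.76 and 8.16 in the ovaries. Eif2s3y, a Y-linked translation factor gene, lay at 6.19, 6.46 and 6.55 in the testes and 2.42 and 2.46 in the ovaries. Foxl2, the granulosa cell factor the study is about, lay at 5.22, 5.38 and 5.31 in the testes and 8.75 and 8.81 in the ovaries. The groups did not overlap for any of these 3 genes. The 3 testes resembled each other more closely than the 2 ovaries did. The median absolute difference over all genes was 0.114 to 0.125 between testes and 0.206 between the ovaries. Between any pair of testes 13 to 19 genes differed at least 2-fold, and between the ovaries 679 did (3.41% of all genes), 106 of them at least 4-fold. Of the genes called between the organs, 528 were at least 2-fold apart between the ovaries. Where leaving out 1 ovary moves the difference of a called gene named below by more than 1.5 times, the values without it are given. Among genes not called, such values are given for some only. A fit without 1 ovary leaves a single wild-type ovary. A call gained or lost in it does not measure the variation among wild-type ovaries.

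Most genes differed between the organs. The adjusted p was under 0.05 for 12028 of 19938 genes (60.3%), with 4864 (24.4%) higher and 7164 (35.9%) lower in testis, and these percentages are the background for the counts in gene lists below. The median difference over all genes was -0.15, and it was 0.00 when arrays were centred on bright genes, so differences near that size depend on the scaling. With that centring 5612 genes were higher and 5731 lower, and at least 2-fold the order turned, from 3241 higher and 3668 lower to 3552 higher and 3105 lower. The larger differences were more often higher in testis. At least 4-fold, 1901 genes (9.53%) were higher and 1123 (5.63%) lower, and at least 16-fold, 758 (3.8%) were higher and 58 (0.291%) lower. At least 64-fold, 154 (0.772%) were higher and 3 (0.015%) lower. Of the genes at least 16-fold higher in testis, 85.9% had levels under 5 in both ovaries, with a median ovary level of 3.82. Of the genes at least 16-fold lower, 58.6% had levels under 5 in all testes, with a median testis level of 4.51. These 2 median levels lie below the medians of the arrays, 4.83 to 4.94, and above their 5th percentiles, 2.16 to 2.29. A difference from such low levels may be compressed.

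**Figure D1:**
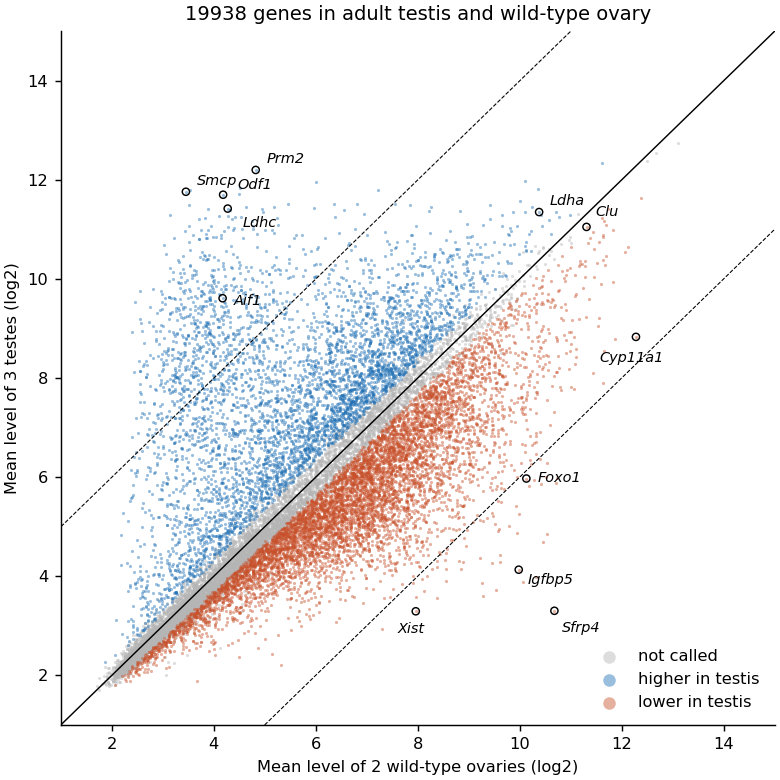
Mean level in 3 testes (vertical axis, log2) against mean level in 2 wild-type ovaries (horizontal axis, log2) for 19938 genes, coloured by call, with the line of equality and dashed lines 4 log2 units (16-fold) to either side. Above the upper line lie 758 called genes, most of them dim in ovary, and below the lower line 58, among them Sfrp4, Igfbp5 and Xist.

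Genes of the sperm itself were higher in testis in every list. In the nucleus of the elongating spermatid, histones are replaced by transition proteins and then by protamines, and all 13 measured genes of this chromatin list were higher, with a median difference of 5.74 against -0.15 over all genes. Prm2, a protamine, lay at 12.11, 12.30 and 12.19 in the testes and 4.94 and 4.70 in the ovaries, a difference of 7.38 ± 0.17 (SE, n = 3 and 2, adjusted p = 1.39e-10). Prm1, the other protamine, differed by 6.84 ± 0.14 and Tnp2, a transition protein, by 6.99 ± 0.15. H2bc1, the testis variant of histone H2B, lay at 10.18 to 10.32 in the testes and at 4.75 and 3.61 in the ovaries. Spem1, needed for the spermatid to shed its cytoplasm, differed by 6.08 ± 0.20.

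The acrosome is the vesicle that carries the enzymes and membrane proteins of fertilization. All 26 measured genes of the acrosome and of sperm-egg fusion were higher in testis, with differences from 1.45 to 7.18 and a median of 4.49. Adam3, a sperm surface protein needed to pass into the oviduct, lay at 11.23, 11.30 and 11.32 in the testes and 4.12 and 4.08 in the ovaries (7.18 ± 0.17, adjusted p = 1.90e-10). Clgn, the chaperone that folds sperm surface proteins, differed by 6.98 ± 0.14, and Spaca1, an inner acrosomal membrane protein, by 6.54 ± 0.12. Adam2, the partner of several sperm ADAM proteins, and Acrv1, an acrosomal vesicle protein, differed by 6.52 and 6.50.

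The sheath and the mitochondria of the tail gave the largest median of any list, 6.22, and all 28 measured genes were higher, the smallest difference being 2.65. Smcp, the cysteine-rich capsule protein of sperm mitochondria, lay at 11.71, 11.70 and 11.88 in the testes and 3.64 and 3.25 in the ovaries, a difference of 8.32 ± 0.15 (adjusted p = 7.23e-11). Odf1, of the outer dense fibres, differed by 7.52 ± 0.14, and Akap3, a scaffold of the fibrous sheath, by 7.44 ± 0.15. Oaz3, the antizyme of spermatids, and Spata18, a mitochondrial quality control protein, differed by 7.24 and 7.07.

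The list of the CatSper calcium channel and its signalling held 15 measured genes, 14 higher and 1 lower. Adcy10, the bicarbonate-sensing adenylyl cyclase of sperm, lay at 9.78, 9.70 and 9.78 in the testes and 2.97 and 2.95 in the ovaries (6.79 ± 0.12, adjusted p = 7.23e-11). Slc9c1, the sperm sodium-proton exchanger, differed by 6.55 ± 0.13, and the channel subunits Catsperz and Efcab9 by 6.50 and 5.75. The gene that was lower was Hvcn1, a voltage-gated proton channel that leukocytes also use, at 3.80, 3.91 and 4.44 in the testes and 5.73 and 4.76 in the ovaries (-1.20 ± 0.30, adjusted p = 0.00503), with -0.71 without ovary 1 and -1.68 without ovary 2.

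The axoneme, the microtubule core of the tail, shares its parts with motile cilia. Of 42 measured axoneme and cilia assembly genes 37 were higher and 1 was lower, with a median of 4.06. Cfap206, a radial spoke protein, lay at 11.18, 11.19 and 11.32 in the testes and 3.96 and 3.69 in the ovaries (7.40 ± 0.14). Dnah8, the outer dynein arm heavy chain used by sperm, differed by 6.85 ± 0.13. Heavy chains of ciliated epithelia gave small differences. Dnah5 and Dnah9 were not called, at differences of 0.23 and 0.24. Dnah11 was the gene that was lower, at 3.86, 3.79 and 3.73 in the testes and 4.23 and 4.20 in the ovaries (-0.42 ± 0.12, adjusted p = 0.0123), and without ovary 1 it missed the threshold (-0.40, adjusted p = 0.0531). These 3 genes had levels under 5 on all 5 arrays. Spag6l, Cfap70 and Spag17, of the central pair and its neighbourhood, differed by 6.14, 6.13 and 6.10.

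**Figure D2:**
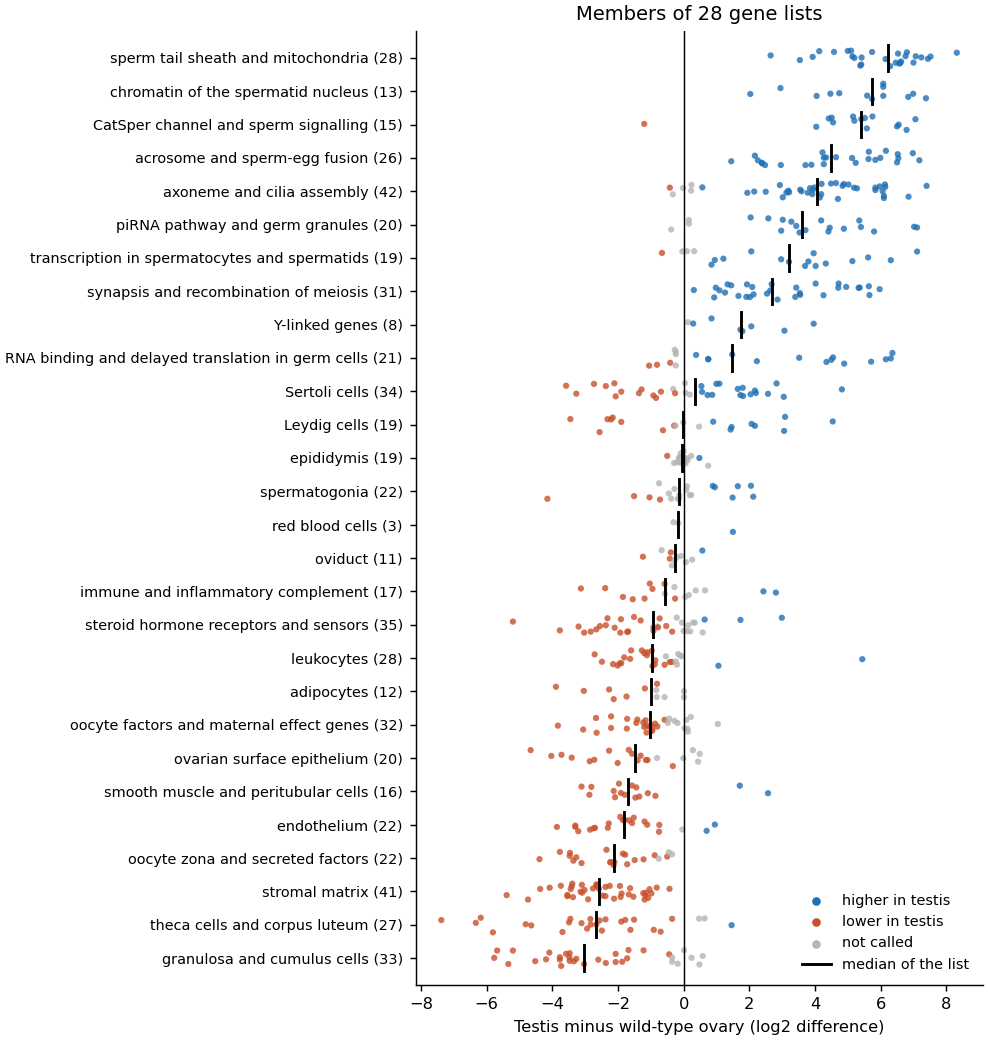
Difference between testis and wild-type ovary (horizontal axis, log2) of each measured member of 28 gene lists, with the number measured in brackets, points coloured by call and a bar at the median. Lists of sperm structures lie to the right with medians up to 6.22, and granulosa, luteal and stromal lists lie to the left with medians down to -3.03.

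Regulators of germ cell transcription and the machinery of meiosis were higher as well. Of 19 measured transcription genes of spermatocytes and spermatids 15 were higher and 1 lower, with a median of 3.21. Spz1, a helix-loop-helix factor of the testis, lay at 10.93, 10.97 and 11.07 in the testes and 3.82 and 3.95 in the ovaries (7.11 ± 0.14). Hsf5 and Tcfl5, factors of meiotic and later male germ cells, differed by 6.31 ± 0.15 and 5.62 ± 0.19, and Sox30, which acts in the step to round spermatids, by 5.14 ± 0.15. Taf7l, an X-linked variant of a general transcription factor subunit, differed by 4.33. Zfp628, a zinc finger protein that binds spermatid gene promoters, was lower (-0.66 ± 0.15, adjusted p = 0.00329). Taf4b, a subunit used in both gonads, lay at 6.98 to 7.04 in the testes, between the ovaries at 7.67 and 6.16, and was not called (0.10). Its difference was 0.85 without ovary 1 and -0.65 without ovary 2.

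All 31 measured genes of synapsis and recombination were higher in testis, with differences from 0.31 to 5.97 and a median of 2.68. Meiotic prophase runs continuously in the adult testis, whereas oocytes pass through it before birth. Syce1, of the central element of the synaptonemal complex, lay at 9.98, 9.99 and 9.97 in the testes and 4.14 and 3.88 in the ovaries (5.97 ± 0.14, adjusted p = 1.65e-10). Stag3, the meiotic cohesin, differed by 5.66 ± 0.14. Sycp3 and Sycp1, of the axis and the transverse filament, differed by 5.64 ± 0.25 and 5.36 ± 0.16.

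The piRNA pathway silences transposons in germ cells, and 17 of its 20 measured genes were higher in testis, none lower, with a median of 3.62. Mael lay at 10.99, 10.98 and 11.23 in the testes and 4.62 and 3.28 in the ovaries (7.11 ± 0.35), and Tdrd6, a chromatoid body protein, differed by 7.02 ± 0.14. Ddx4, the germ cell helicase Vasa, lay at 10.67, 10.60 and 10.66 in the testes and 5.49 and 4.19 in the ovaries (5.80 ± 0.32). Piwil1, the Argonaute protein of pachytene piRNAs, differed by 5.40 ± 0.13 and Ddx25 by 5.35. Piwil4 and Nanos3, used by fetal germ cells, were not called, at differences of 0.16 each. Of these 20 genes 17 had a higher level in ovary 1 than in ovary 2, with a median excess of 0.41.

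Transcripts made early in spermatids are stored and translated later, and 14 of 21 measured RNA-binding genes of this kind were higher and 3 lower, with a median of 1.48. Papolb, the cytoplasmic poly(A) polymerase of spermatids, lay at 9.74, 9.73 and 9.80 in the testes and 3.27 and 3.52 in the ovaries (6.36). Pabpc6 and Adad1 differed by 6.31 and 6.16, Boll by 5.71 ± 0.15, and Ybx2, which holds protamine messages in store, by 4.89 ± 0.36. The 3 lower genes are expressed in many tissues. Celf1 was at 7.99 to 8.04 in the testes and 8.98 and 9.13 in the ovaries (-1.05 ± 0.10), Tsn differed by -0.81 ± 0.10, and Paip2b by -0.41 (adjusted p = 0.0186), a call that was lost without ovary 2, testis 2 or testis 3 (adjusted p = 0.0636, 0.0657 and 0.0583). Cpeb1, which controls stored messages in oocytes, was not called (-0.24), with 0.40 without ovary 1 and -0.89 without ovary 2.

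Spermatogonia, the dividing germ cells at the base of the tubule, gave no shift of this kind. Of 22 measured genes 6 were higher, 4 were lower and 12 were not called, against 24.4% higher and 35.9% lower over all genes, and the median was -0.13, which became 0.02 when arrays were centred on bright genes. Id4, a marker of the stem cell pool, lay at 8.34, 8.35 and 8.52 in the testes and 6.18 and 6.38 in the ovaries (2.12 ± 0.15, adjusted p = 4.68e-07). Sohlh2, Dmrt1 and Dmrtb1, regulators of spermatogonial differentiation and meiotic entry, differed by 2.05, 1.65 and 1.49, and Stra8, which marks meiotic entry, by 0.95. Foxo1, which acts in the stem cell pool and is also abundant in granulosa cells, went the other way, at 6.15, 5.75 and 6.02 in the testes and 10.76 and 9.49 in the ovaries (-4.15 ± 0.29). Rarg and Uchl1 were lower by -1.51 and -1.04. Gfra1, the receptor of the stem cell niche signal Gdnf, was not called at 5.27, 5.43 and 5.39 in the testes and 5.20 and 5.14 in the ovaries. The median of this list was 0.14 without ovary 1 and -0.38 without ovary 2.

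Many enzymes and structural proteins have a copy used in male germ cells beside the copy used elsewhere. Of 34 such pairs, 29 had both partners measured, and in all 29 the germ cell partner was higher in testis and its signed difference lay above that of the other partner. The germ cell partners were listed because they are known for expression in male germ cells, so this outcome was largely fixed by the choice. The other partner was lower in 19 pairs, higher in 7 and not called in 3, against 35.9% lower and 24.4% higher over all genes. The median difference was 4.33 for the germ cell partners and -0.90 for the others. Near-identical copies can share array probes, so the size of each difference within a pair is uncertain.

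The widely used partner is X-linked in 7 of the pairs. Of these 7 genes 6 were lower in testis, with a median of -2.72, and of the 22 autosomal ones 13 were lower and 7 higher, with a median of -0.51. Pgk1, the glycolytic phosphoglycerate kinase on the X, lay at 6.68, 6.71 and 6.72 in the testes and 9.05 and 9.21 in the ovaries (-2.43 ± 0.14), while Pgk2 on chromosome 17 lay at 10.43, 10.45 and 10.52 and at 3.67 and 3.13 (7.06 ± 0.16). Pdha1, of pyruvate dehydrogenase, was lower by -2.78 ± 0.14 and Pdha2 higher by 4.06 ± 0.19. Rpl10, a protein of the large ribosomal subunit, lay at 8.75, 8.79 and 8.85 in the testes and 11.88 and 11.84 in the ovaries (-3.07 ± 0.08), and Rpl10l on chromosome 12 was higher by 4.20 ± 0.26. Smc1a and its meiotic partner Smc1b, of the cohesin ring, differed by -2.94 ± 0.12 and 5.33 ± 0.27. Rbmx and Rbmxl2, nuclear RNA-binding proteins, differed by -2.72 and 0.75, and the centrins Cetn2 and Cetn1 by -0.71 and 3.33. The call of Cetn2 (adjusted p = 0.0300) was lost without ovary 2 (0.114) and without testis 1, 2 or 3 (0.0641, 0.0809 and 0.0520). Cstf2, of the polyadenylation machinery, was the X-linked partner that was not called, at 7.65, 7.63 and 7.66 in the testes and 7.75 and 7.29 in the ovaries (0.13).

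Among autosomal pairs both patterns occurred. Hspa8, the constitutive heat shock protein of the 70 family, was lower (-1.69 ± 0.10) and Hspa2, needed in spermatocytes, higher (4.59 ± 0.12). Canx, the general calnexin, was lower by -0.92, beside 6.98 for Clgn. The oxidative genes Cox6b1, Cox8a and Slc25a4 differed by -2.04, -1.67 and -1.82, and their germ cell partners Cox6b2, Cox8c and Slc25a31 by 3.68, 3.72 and 4.59. In the 7 pairs with both partners higher, Ldha, of lactate metabolism, lay at 11.43, 11.37 and 11.25 in the testes and 10.42 and 10.34 in the ovaries (0.97 ± 0.16), beside 7.15 ± 0.12 for Ldhc. Tbp, the TATA-binding protein, was higher by 2.75 ± 0.17 and its relative Tbpl1 by 2.97 ± 0.17. Pabpc1 and Pabpc2 differed by 0.73 and 7.23, and Ube2d2a and Ube2d2b, ubiquitin-conjugating enzymes, by 0.56 and 7.67.

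**Figure D3:**
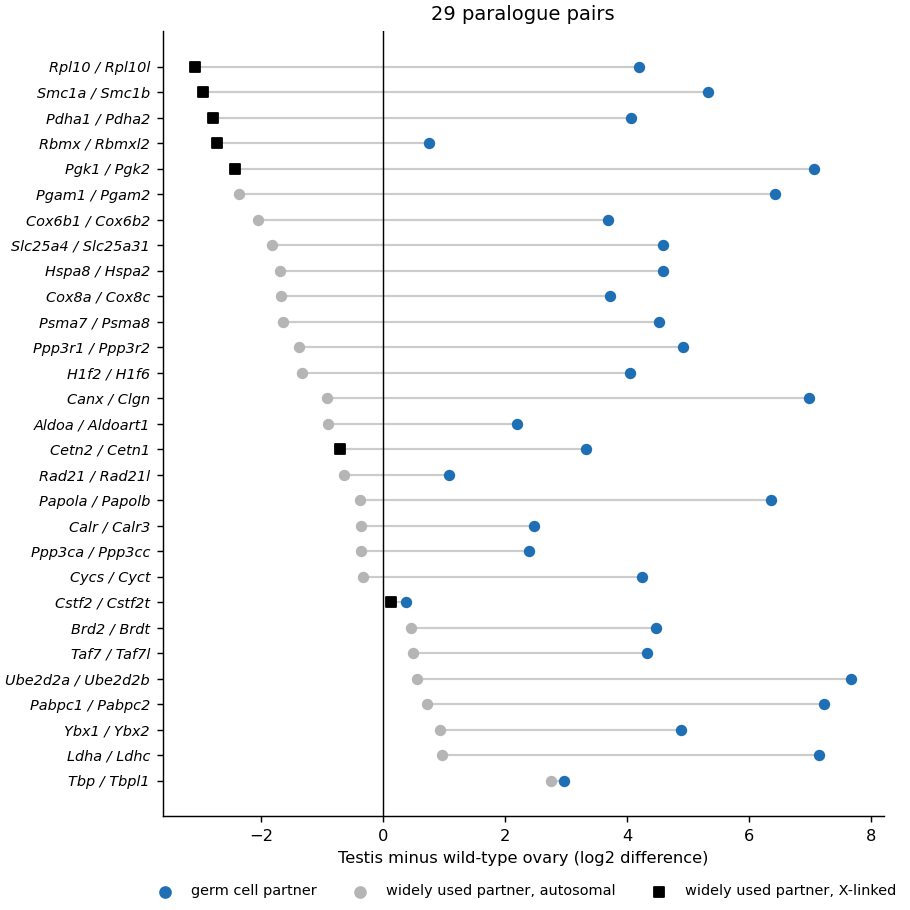
Difference between testis and wild-type ovary (horizontal axis, log2) for both partners of 29 paralogue pairs, the widely used partner named first, with X-linked widely used partners as black squares. The germ cell partner lies to the right in every pair, and 6 of the 7 squares lie to the left of 0, down to -3.07 for Rpl10.

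The X chromosome as a whole stood apart from the autosomes. In male meiosis the X and Y are silenced, and X-linked genes stay at low activity in many spermatids. Of 739 X-linked genes 46.5% were lower and 21% higher in testis, and of 19103 autosomal genes 35.6% were lower and 24.5% higher. The share that was lower ranged from 31.2% to 41.7% over the single autosomes, so the X lay outside that range. At least 4-fold, 12.9% of X-linked genes were lower, against 5.38% of autosomal genes and 3.87% to 7.42% over single autosomes. At least 16-fold, 1.49% were higher, against 3.88% and 2.87% to 5.2%. The median difference was -0.30 on the X, -0.15 on the autosomes and -0.21 to -0.10 over single autosomes. These shares are a description and were not tested.

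The largest differences on the X went in both directions. Akap4, the main scaffold of the fibrous sheath, lay at 9.94, 10.11 and 10.45 in the testes and 3.67 and 3.53 in the ovaries (6.57 ± 0.16, adjusted p = 2.24e-10). Vsig1, Asb9, Ctag2 and Tsga8 were higher by 4.99, 4.88, 4.86 and 4.71. Below Xist (-4.67 ± 0.17), the genes lower in testis were led by Heph, a copper-dependent iron oxidase, at 3.99, 4.49 and 3.95 in the testes and 9.47 and 7.64 in the ovaries (-4.41 ± 0.41), and by Bmp15, an oocyte growth factor (-4.39). Slc9a7 and Plp2, membrane proteins, followed at -4.22 and -4.06. On the Y, 7 of 8 listed genes were higher. Uba1y, a ubiquitin-activating enzyme, differed by 3.07 ± 0.15 and Zfy1, a zinc finger factor, by 2.06 ± 0.15, while Kdm5d was called at a difference of 0.29 (adjusted p = 0.0395), a call that was lost in each of the 5 fits without 1 array (adjusted p from 0.0546 to 0.153). Sry, the switch of testis fate that acts in the fetus, was not called, at 5.77, 5.34 and 5.49 in the testes and 5.40 in each ovary. For a Y-linked gene this ovary level is background, and it lay above the medians of the ovary arrays, 4.86 and 4.88. This probe set therefore cannot show whether Sry was expressed in testis.

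**Figure D4:**
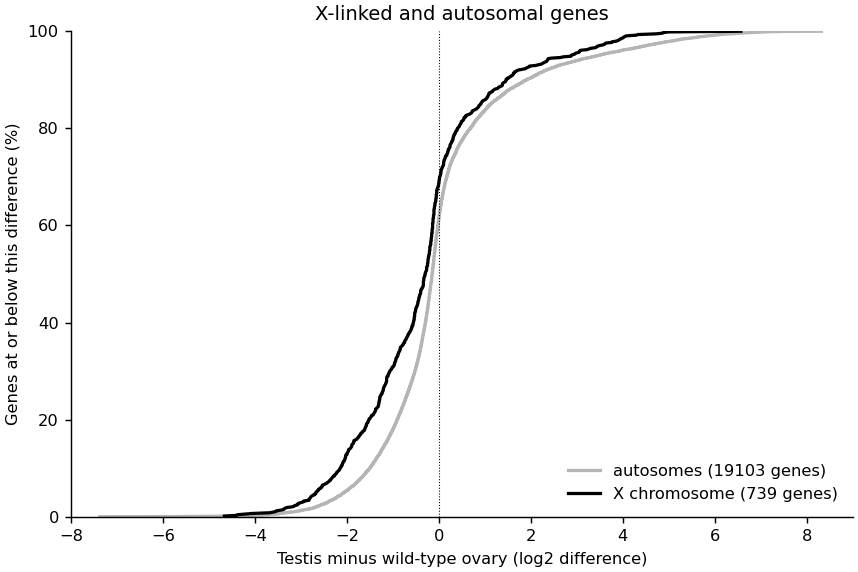
Cumulative share of genes (vertical axis, %) at or below each difference between testis and wild-type ovary (horizontal axis, log2) for 739 X-linked and 19103 autosomal genes. The X-linked curve is shifted to the left of the autosomal one, with medians of -0.30 and -0.15.

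Sertoli cell genes were divided. Of 34 measured, 17 were higher and 13 lower in testis, with a median of 0.36 that was 0.47 without ovary 1 and 0.10 without ovary 2. Cst9, a cystatin-like secreted protein, lay at 8.04, 8.12 and 8.01 in the testes and 3.39 and 3.07 in the ovaries (4.82 ± 0.15, adjusted p = 9.41e-10). Tsx on the X was higher by 3.05 ± 0.33 and Ttyh1, a membrane protein, by 2.57. Defb36, a defensin family gene, differed by 2.20. Aard lay at 8.48, 8.57 and 8.69 in the testes and 7.04 and 4.47 in the ovaries, so that its difference of 2.83 ± 0.53 was 4.11 without ovary 1 and 1.54 without ovary 2. Among the genes that were lower were Inhbb, Amh and Gata4, which granulosa cells also use. Inhbb, the inhibin and activin B subunit, lay at 6.10, 6.29 and 6.35 in the testes and 9.93 and 9.72 in the ovaries (-3.58 ± 0.12). Amh, the anti-Müllerian hormone, which young Sertoli cells and growing follicles make, lay at 4.21, 4.18 and 4.41 and at 9.05 and 6.03 (-3.27 ± 0.63, adjusted p = 0.00107), with -1.76 without ovary 1 and -4.78 without ovary 2. Gata4, a factor of both cell types, differed by -2.73 ± 0.22.

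Leydig cell genes were split. Of 19 measured 8 were higher and 8 lower, with a median of -0.01, which became 0.15 when arrays were centred on bright genes. Hsd3b6, the 3-beta-hydroxysteroid dehydrogenase of the adult Leydig cell, lay at 8.29, 8.35 and 8.90 in the testes and 3.95 and 4.00 in the ovaries (4.54 ± 0.34), whereas Hsd3b1, the form used in the ovary and named here after its values were seen, lay at 5.09, 4.67 and 5.09 and at 9.13 and 10.05 (-4.64). Hsd17b3, which makes testosterone, lay at 7.41, 7.50 and 7.51 and at 4.31 and 4.46 (3.09 ± 0.19), whereas Hsd17b1, the estradiol-forming enzyme of granulosa cells, lay at 4.97, 4.85 and 4.76 and at 10.96 and 10.13 (-5.68). Klk1b24, a kallikrein, was higher by 3.06 ± 0.29. Cyp11a1, which cleaves the cholesterol side chain in both organs, was lower in testis, at 8.88, 8.72 and 8.88 against 12.01 and 12.54 (-3.45 ± 0.17), and so was Nr5a1, a master regulator of steroidogenic genes (-2.32 ± 0.20). Star, which carries cholesterol into mitochondria, lay at 6.57, 6.54 and 7.56 in the testes and 7.73 and 11.17 in the ovaries. Its difference of -2.56 ± 0.76 (adjusted p = 0.0140) was -4.28 without ovary 1 and missed the threshold without ovary 2 (-0.84, adjusted p = 0.0831). Cyp17a1, of androgen synthesis, was not called, at 10.47, 10.44 and 10.72 in the testes and 11.05 and 9.08 in the ovaries. Its difference was 1.46 without ovary 1 and -0.51 without ovary 2.

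Genes of the follicle wall were lower in testis. Of 33 measured granulosa and cumulus cell genes 26 were lower and 0 higher, with a median of -3.03. Inhba, the inhibin and activin A subunit, lay at 5.0, 4.20 and 4.86 in the testes and 10.80 and 10.10 in the ovaries (-5.77 ± 0.28, adjusted p = 2.24e-08). Greb1, a target of steroid receptors, lay at 4.15 to 4.46 in the testes and at 9.49 and 9.74 in the ovaries (-5.34 ± 0.15). Nr5a2, a nuclear receptor needed for ovulation, differed by -5.20 ± 0.16, and Fst, the activin-binding protein follistatin, by -4.52. The genes not called included Pappa, a protease of growth factor binding proteins, at 6.66, 6.73 and 6.65 in the testes and 5.21 and 7.20 in the ovaries. The difference of Pappa was -0.51 without ovary 1 and 1.47 without ovary 2. Amhr2, the receptor of anti-Müllerian hormone in both gonads, was not called either, at 9.32, 9.34 and 9.19 against 9.33 and 8.07. Its difference was 1.21 without ovary 1 and -0.05 without ovary 2.

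Genes of theca cells and the corpus luteum were also lower, 24 of 27 measured, with 1 higher and a median of -2.66. Sfrp4, a secreted Wnt antagonist of luteal cells, had the most negative difference of all listed genes, at 3.59, 3.23 and 3.07 in the testes and 9.66 and 11.70 in the ovaries (-7.38 ± 0.67, adjusted p = 3.71e-06). Ephx2, an epoxide hydrolase, differed by -6.33 ± 0.40. Akr1c14 and Akr1c18, which inactivate steroids and end luteal progesterone output, lay at 3.58 to 4.00 in the testes and at 9.05 to 10.07 in the ovaries (-6.18 and -5.81). Ptgfr, the receptor that receives the luteolytic prostaglandin signal, lay at 3.48, 3.54 and 3.65 in the testes and 6.88 and 9.86 in the ovaries, and its difference of -4.81 ± 0.71 was -6.30 without ovary 1 and -3.32 without ovary 2. Ces1d, a carboxylesterase that Leydig cells also express, was the gene that was higher (1.46 ± 0.28). Of the 27 genes 10 were higher in ovary 1 than in ovary 2, and the median difference between the ovaries was -0.54.

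Oocyte genes were lower in testis, by amounts that depended on the ovary. Of 22 measured genes of the zona pellucida and secreted factors 19 were lower and 0 higher, with a median of -2.12. Bmp15 lay at 3.88, 3.45 and 3.40 in the testes and 9.09 and 6.83 in the ovaries (-4.39 ± 0.49, adjusted p = 1.70e-05). Zp2 and Zp3, of the egg coat, lay at 3.52 to 3.63 and at 3.89 to 4.16 in the testes, and at 8.47 and 6.20 and at 8.49 and 6.51 in the ovaries. Their differences were -3.77 and -3.47 ± 0.42, beside -3.46 for Rfpl4 (-2.30 without ovary 1) and -3.36 for Zp1. All 22 genes had the higher level in ovary 1, with a median excess of 1.57. The median was -1.34 without ovary 1 and -2.86 without ovary 2.

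The second oocyte list, of transcription factors and maternal effect genes, followed the same course. Of 32 measured 22 were lower and 0 higher, with a median of -1.01, and 30 had the higher level in ovary 1. Elobl, an oocyte elongin-related gene, lay at 5.50, 4.18 and 5.11 in the testes and 9.57 and 7.93 in the ovaries (-3.83 ± 0.48). Padi6, of the cytoplasmic lattices of the egg, lay at 4.94, 5.01 and 5.0 and at 9.22 and 6.87 (-3.06 ± 0.49). Fbxw15, Nlrp5 and Bcl2l10 differed by -2.67, -2.65 and -2.21. Without ovary 1, Padi6, Fbxw15, Nlrp5 and Bcl2l10 differed by -1.88, -1.62, -1.46 and -1.10, and without ovary 2 by -4.24, -3.72, -3.84 and -3.32. Nlrp14, which male germ cells also express, was not called, at 7.83, 8.02 and 7.89 in the testes and 7.93 and 5.81 in the ovaries. Its difference was 2.10 without ovary 1 and -0.01 without ovary 2. Btg4, which clears maternal messages in the egg, lay at 6.36 to 6.51 in the testes, between the ovaries at 7.27 and 5.53 (0.03, not called). Its difference was 0.90 without ovary 1 and -0.85 without ovary 2. The median of the list was -0.40 without ovary 1 and -1.61 without ovary 2.

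**Figure D5:**
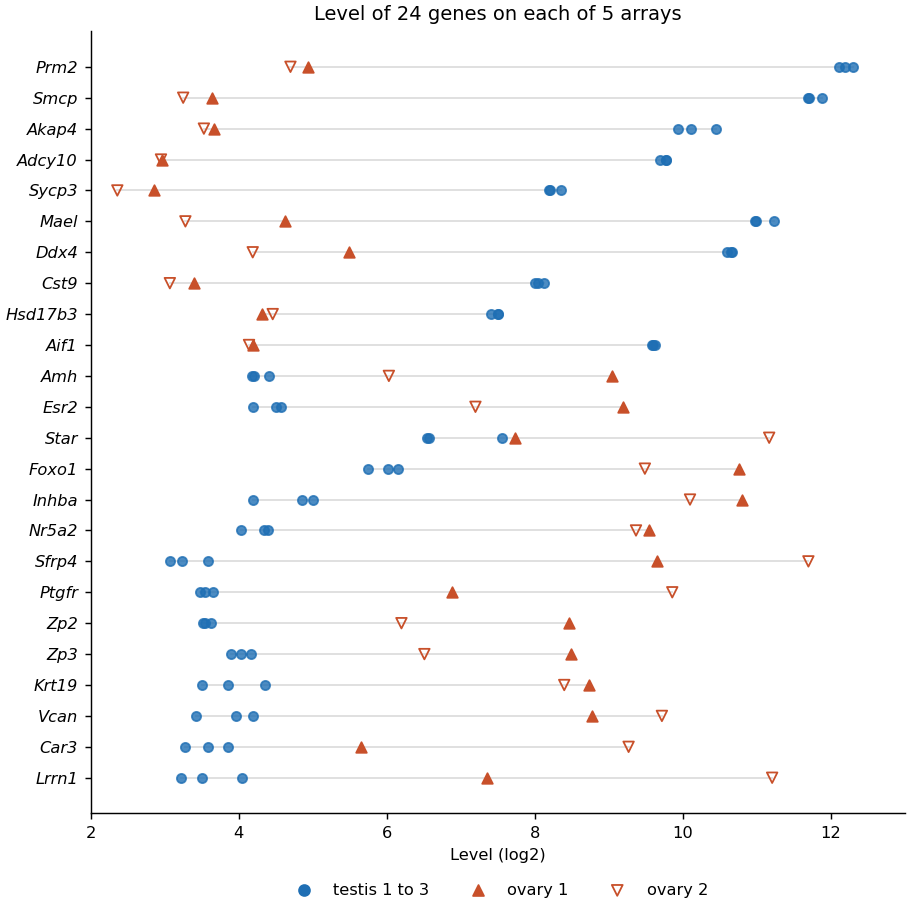
Level (horizontal axis, log2) of 24 genes on each of the 5 arrays, with testes as filled circles, ovary 1 as filled and ovary 2 as open triangles. The ovaries lie apart for Amh (9.05 and 6.03), Star (7.73 and 11.17), Zp3 (8.49 and 6.51) and Lrrn1 (7.35 and 11.21).

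The supporting tissues of the ovary also set the organs apart. All 41 measured stromal matrix genes were lower in testis, with differences from -5.39 to -0.43 and a median of -2.58, and each testis lay below both ovaries in all 41. Over all genes that order was found for 45.4%. Vcan, the proteoglycan versican, lay at 4.19, 3.97 and 3.42 in the testes and 8.78 and 9.72 in the ovaries (-5.39 ± 0.44). Thbs1, a matrix glycoprotein that acts on vessels, and Lum, a small proteoglycan, differed by -4.74 and -4.37 ± 0.33, and Mmp2 and Col3a1, a matrix protease and a fibrillar collagen, by -4.08 and -3.74. Of 20 surface epithelium genes 15 were lower and 0 higher (median -1.48). Krt19, a keratin, lay at 4.36, 3.85 and 3.50 in the testes and 8.73 and 8.40 in the ovaries (-4.66 ± 0.30), and Upk3b, a mesothelial uroplakin, differed by -4.03 ± 0.23.

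Smooth muscle and peritubular cell genes were lower in 14 of 16 cases and higher in 2, with a median of -1.68. Tagln, an actin-binding protein, lay at 5.67, 5.79 and 6.27 in the testes and 9.13 and 8.92 in the ovaries (-3.11 ± 0.18), and Cald1 and Aoc3 differed by -2.87 and -2.81. Actg2, the gamma actin of smooth muscle, went the other way, at 9.44, 9.55 and 9.51 in the testes and 7.90 and 7.68 in the ovaries (1.71 ± 0.20, adjusted p = 2.97e-05), as did Pln, the calcium pump inhibitor phospholamban (2.57 ± 0.16).

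Vessel genes were lower in 19 of 22 cases, with a median of -1.82. Emcn, an endothelial sialomucin, lay at 3.69, 3.84 and 3.99 in the testes and 7.32 and 8.07 in the ovaries (-3.86 ± 0.28), and Pecam1 and Kdr, the platelet adhesion molecule and the main VEGF receptor, differed by -3.30 each. Prox1 and Sox17, transcription factors of lymphatic and arterial endothelium, were higher in testis (0.95 ± 0.19 and 0.70 ± 0.18). Vwf, the von Willebrand factor, was not called, at 6.24, 6.20 and 6.09 against 6.56 and 5.88.

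Leukocyte genes were lower in 20 of 28 cases and higher in 2, with a median of -0.96. H2-Aa and Cd74, of antigen presentation, lay at 5.47, 5.83 and 5.50 and at 4.85, 5.47 and 5.04 in the testes, and at 8.07 and 8.55 and at 7.41 and 7.80 in the ovaries (-2.71 ± 0.26 and -2.49). Lyz2, the lysozyme of macrophages, and Cd68 differed by -2.15 and -2.01. Aif1, widely used as a macrophage marker, was far higher in testis, at 9.60, 9.59 and 9.63 against 4.19 and 4.14 (5.44 ± 0.15, adjusted p = 4.19e-10). Mrc1, the mannose receptor of tissue macrophages, was higher by 1.06 ± 0.24.

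Genes of tissue next to the gonads gave few calls for epididymis and oviduct and more for fat. Of 19 measured epididymis genes 1 was higher and 1 lower, with mean levels of 3.49 to 3.60 on the 5 arrays, and of 11 oviduct genes 1 was higher and 3 lower. Of 12 adipocyte genes 7 were lower. Car3, the carbonic anhydrase of fat and muscle, lay at 3.86, 3.58 and 3.27 in the testes and 5.65 and 9.27 in the ovaries, and Plin4, a lipid droplet protein, at 4.54 to 4.80 and at 5.64 and 9.79. Without ovary 1 they differed by -5.70 and -5.12, and without ovary 2 by -2.08 and -0.96. Adipoq, the fat cell hormone adiponectin, was at 3.87 in ovary 1 and 5.38 in ovary 2. It was not called (-0.83), with -1.58 without ovary 1 and -0.08 without ovary 2. Of the 12 genes 3 were higher in ovary 1 than in ovary 2, among them Plin1 (7.20 and 6.61) and Cd36 (7.39 and 6.66). Mean levels over the adipocyte list were 4.37 to 4.44 in the testes, 5.34 in ovary 1 and 6.35 in ovary 2. The mean was thus higher in ovary 2, with the largest gaps in Plin4 and Car3. The part of this difference in the results above was not tested. Of 3 measured red blood cell genes Alas2 was higher in testis (1.5) and 2 were not called.

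Receptors for steroids, related ligands and other hormones were mostly lower in testis, 22 of 35 measured, with 3 higher and a median of -0.92. Esr2, the estrogen receptor of granulosa cells, lay at 4.51, 4.20 and 4.57 in the testes and 9.19 and 7.20 in the ovaries (-3.77). Ghr, the growth hormone receptor, and Nr2f2, a nuclear receptor of stromal and steroidogenic cells, differed by -3.20 and -3.03. Oxtr, the oxytocin receptor, lay at 5.35, 5.32 and 6.08 in the testes and 6.87 and 9.96 in the ovaries (-2.83 ± 0.68), and its difference was -4.37 without ovary 1 and -1.28 without ovary 2. Nr6a1, a germ cell nuclear receptor, was higher, at 8.81, 8.86 and 8.84 against 6.09 and 5.60 (2.99 ± 0.18). Nr0b1, a repressor of steroidogenesis, lay at 8.35, 8.16 and 8.35 in the testes and 7.61 and 5.50 in the ovaries (1.73), with 2.79 without ovary 1 and 0.68 without ovary 2, and Vdr, the vitamin D receptor, was higher by 0.64.

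Complement genes were lower in 9 of 17 cases and higher in 2. Masp1, which starts the lectin pathway, lay at 4.61, 4.58 and 4.59 in the testes and 8.23 and 7.22 in the ovaries (-3.13 ± 0.27), and C1s1 and Serping1 differed by -2.39 and -1.85. Cd46, a complement regulator that in rodents is found on the acrosome, was higher, at 6.27, 5.58 and 5.79 against 3.22 and 2.92 (2.81 ± 0.22). C7, of the membrane attack complex, lay at 8.26, 8.25 and 8.34 in the testes and 7.13 and 4.58 in the ovaries (2.43 ± 0.58), with 3.70 without ovary 1 and 1.15 without ovary 2.

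Outside the lists, the genes with the largest positive differences included several of the sperm head and tail. Fabp9, a fatty acid binding protein of the spermatid, lay at 11.80, 11.86 and 11.75 in the testes and 3.53 and 3.55 in the ovaries (8.26 ± 0.14, adjusted p = 7.23e-11). Allc, an allantoicase, differed by 7.97 ± 0.14, and Crisp2, a secretory protein of the acrosome and tail, by 7.61. Atp8b3, a phospholipid flippase of the acrosome, and Spink2, a protease inhibitor of the acrosome, differed by 7.23 and 7.04. The kinesin Kif2b and the mucin-type glycosyltransferase relative Galntl5 differed by 7.11 and 6.95.

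On the ovarian side, Igfbp5, an insulin-like growth factor binding protein, lay at 4.32, 4.09 and 3.98 in the testes and 10.29 and 9.66 in the ovaries (-5.85 ± 0.23). Bcat1, of branched-chain amino acid breakdown, differed by -5.20 ± 0.26 and Prkar2b, a regulatory subunit of protein kinase A, by -4.84 ± 0.22. Myc, the growth regulator, lay at 4.13 to 4.15 in the testes and at 8.67 and 9.03 in the ovaries (-4.71). Htra1, a secreted serine protease, was even between the ovaries at 10.51 and 10.52 (-4.51 ± 0.14). For 3 genes the ovaries differed strongly. Lrrn1, a leucine-rich repeat membrane protein, lay at 7.35 and 11.21, Nrn1, the neuritin gene, at 8.70 and 11.20, and Abcb1b, a multidrug transporter, at 6.63 and 9.61, each against levels of 5.0 or less in the testes. Lrrn1 differed by -5.69 ± 0.84, with -7.63 without ovary 1 and -3.76 without ovary 2. Nrn1 differed by -5.09 ± 0.53, with -6.34 without ovary 1 and -3.84 without ovary 2. Abcb1b differed by -4.43 ± 0.67, with -5.92 and -2.93 in the same order.

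The classes of small RNA genes differed in their counts, and they were chosen after their values were seen. Of 53 measured snoRNA genes, whose products guide chemical changes of ribosomal RNA, 36 (67.9%) were lower and 0 higher, with a median of -0.70. All testes lay below both ovaries for 41 of the 53, an order found for 45.4% of all genes. The array detects the gene's transcripts and many snoRNAs lie in introns of other genes. Snord14e lay at 4.74, 4.49 and 4.32 in the testes and 7.01 and 6.84 in the ovaries (-2.41 ± 0.17, adjusted p = 4.94e-07). The RNA polymerase III products Rny3, Rmrp and Rpph1, which act in Ro particles and in the processing of ribosomal and transfer RNA, were lower by -2.16 ± 0.33, -1.75 ± 0.30 and -1.47 ± 0.23. Of the same kind, Rn7sk (-0.12, adjusted p = 0.278) and Rny1 (-0.48, adjusted p = 0.0956) were not called. Rpph1 lay at 10.26, 10.94 and 10.74 in the testes and 12.23 and 12.01 in the ovaries. Whether the recovery of small RNA differed between the organs was not tested.

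Of 297 measured miRNA genes 69 (23.2%) were lower and 3 higher, a share below the background of 35.9%, with a median of -0.15, and when arrays were centred on bright genes 27 were lower and 18 higher. Mir202, a gonadal miRNA gene, had the largest difference, at 2.65, 2.49 and 2.48 in the testes and 6.16 and 3.58 in the ovaries (-2.33 ± 0.55, adjusted p = 0.00377), with -1.04 without ovary 1 and -3.63 without ovary 2. Both of its arms are shown because it had the largest difference, and 2 further sequences are shown because their genes, Mir92b and Mir92-2, were both lower and their mature forms share a seed, as an example of the 5 seeds that called miRNA genes shared. Capitals mark the seed, bases 2 to 8, and the sequences are from RefSeq (build GRCm38.p6), with 65 of the 72 called miRNA genes matched to at least 1 mature form.
mmu-miR-202-3p (chr7:139957695-139957716, minus strand): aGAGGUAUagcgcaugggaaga
mmu-miR-202-5p (chr7:139957732-139957752, minus strand): uUCCUAUGcauauacuucuuu
mmu-miR-92b-3p (chr3:89227126-89227147, minus strand): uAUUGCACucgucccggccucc
mmu-miR-92a-3p (chrX:52741854-52741874, minus strand): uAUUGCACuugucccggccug
Mir92b lay at 5.43, 5.40 and 5.27 in the testes and 6.12 and 6.36 in the ovaries (-0.87 ± 0.14), and Mir92-2, the X-linked source of miR-92a, at 2.80 to 2.86 and at 3.34 and 3.14 (-0.40 ± 0.10), a call that Mir92-2 lost without ovary 1 (-0.30, adjusted p = 0.0657). These levels are of the gene's transcripts on the array, not of the mature forms printed here.

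Promoters were read for letters that known germ cell factors recognise. Factors of the RFX family bind an X-box, and in testis Rfx2 lay at 8.90, 8.98 and 9.23 against 5.71 and 5.94 in the ovaries (3.21 ± 0.16), Rfx3 differed by 1.94 ± 0.18, and Rfx4 by 4.02 ± 0.16, genes that were chosen after their values were seen. An exact X-box, on either strand in the 250 bases before a start, was present in 0.471% of 18481 promoters of measured protein-coding genes in RefSeq (build GRCm38.p6), in 1.69% of 1899 promoters of genes at least 4-fold higher in testis (32 promoters) and in 0.089% of 1124 promoters of genes at least 4-fold lower (1 promoter). For the genes at least 16-fold higher the share was 2.04%. The X-box differed most as a ratio of shares, which rests on the 1 promoter of the lower genes, and in percentage points TGACGTCA and TATAAA differed about as much. TGACGTCA, the site of CREM and its relatives, was present in 2.03% of all promoters, 2.69% of those at least 4-fold higher and 1.07% of those at least 4-fold lower. Among those at least 16-fold higher its share was 2.04%, near that of all promoters. TCAAGGTCA, read by NR5A receptors, gave 0.271%, 0.579% and 0.356%, GTAAACA, read by forkhead factors, 2.61%, 2.53% and 2.14%, and TATAAA 10.7%, 7.85% and 9.61%. CG pairs were fewer in promoters of the 16-fold higher genes, with a median of 6 against 11 over all promoters. Genes with several starts contribute several promoters, and a match is a description of letters, not a binding site.

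The promoter stretches of 6 genes with an exact X-box are shown as examples of this match among genes higher in testis. These genes were chosen after their values were seen. Each sequence is read toward the gene from RefSeq (build GRCm38.p6), and capitals mark the X-box or its reverse complement.
Lrrc34 (chr3:30647824-30647903, minus strand): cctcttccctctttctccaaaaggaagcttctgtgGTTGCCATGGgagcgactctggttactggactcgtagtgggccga
Tcp11 (chr17:28079791-28079870, minus strand): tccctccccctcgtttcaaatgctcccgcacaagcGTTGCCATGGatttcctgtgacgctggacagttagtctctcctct
Kif9 (chr9:110476932-110476993, plus strand): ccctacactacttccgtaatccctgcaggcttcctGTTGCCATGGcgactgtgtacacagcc
Nsun7 (chr5:66259808-66259887, plus strand): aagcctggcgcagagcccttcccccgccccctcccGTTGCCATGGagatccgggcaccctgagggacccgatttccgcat
Ttc23l (chr15:10558669-10558739, minus strand): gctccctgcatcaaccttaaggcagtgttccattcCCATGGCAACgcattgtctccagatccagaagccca
Deup1 (chr9:15627885-15627964, minus strand): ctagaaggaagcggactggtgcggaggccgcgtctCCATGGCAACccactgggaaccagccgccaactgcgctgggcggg
Lrrc34, a leucine-rich repeat protein, lay at 10.19, 10.25 and 10.16 in the testes and 3.52 and 3.27 in the ovaries (6.81 ± 0.13). Its X-box lies in the stretch it shares with Lrriq4 on the other strand, which differed by 2.49 ± 0.16. Tcp11, a sperm motility gene on the tail list, differed by 6.29 ± 0.12, Kif9, a kinesin of the central pair, by 5.59 ± 0.14, and Nsun7, a methyltransferase family gene needed for sperm motility, by 5.37 ± 0.15. Ttc23l differed by 5.27 ± 0.12, and Deup1, which amplifies centrioles in multiciliated cells, by 5.10 ± 0.14.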

How the data were processed

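Levels are the log2 values that the authors deposited for the adult arrays. They come from RMA, run in Affymetrix's Expression Console according to the submitters' processing notes, with no version stated there. The newborn table (another platform) was not used. Probe sets were named from the platform annotation: of 35557, 21789 named 1 gene, 1621 several and 12147 none. For each of 19938 genes, the probe set with the highest mean over the adult arrays was kept (999 genes had more than 1). Differences were fitted with limma 3.58.1 (R 4.3.3, lmFit and eBayes with an intensity trend) over 8 adult arrays in 3 groups, with no covariate. Tested on simulated data, the fit recovered 71.2% of differences of 1, 93.8% of 2 and 100% of 4 (19938 genes). It made 5 false calls, 2.82% of its calls. The simulation gave each gene the same spread in every group, so it does not cover ovaries that vary more than testes. Replicate numbers were not treated as pairs (correlations of deviations -0.002 and -0.003). With 2 ovaries the deviations mirror each other, so these correlations cannot exclude a shared batch. Named genes are the up to 5 largest called members of each list in its main direction, up to 3 in the other and up to 2 not called, pair partners, Y-linked genes, the 5 largest X-linked genes each way, and those with the largest differences outside the lists. Exceptions are stated. Members and lists were chosen with earlier results of these data known. Alternatives were 5 arrays alone, no trend, a filter on low values, the mean over probe sets, quantile normalization, centring on bright genes, a replicate block, a limma test against a 2-fold threshold and leaving out each array.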

Additional observations from a re-analysis of the deposited data

How the results depend on the processing

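Of 2666 values of 224 named genes under 12 alternatives, 2611 kept their direction and their side of the threshold. The filter on low values kept a gene whose mean level was at least 6 in the testes or in the ovaries, and it keeps fewer members. A member can pass through the organ where it is high alone. The counts and medians under the filter are therefore no test of a direction. Of those kept, 20 of 20 meiosis and 2 of 2 Y-linked genes were called higher, and 13 of 15 leukocyte genes, 11 of 14 oocyte factors, 12 of 13 zona list genes, 10 of 12 snoRNA genes and 14 of 23 miRNA genes were called lower, with medians of -1.63 for leukocytes (-0.96 unfiltered) and -1.64 for snoRNA genes (-0.70). On the X, 66 genes were higher and 217 lower under it. Over all 10662 genes it kept, 44.9% of the calls were higher in testis, against 40.4% in the main fit. The background of 24.4% higher and 35.9% lower is for the unfiltered genes and does not apply to these counts. With centring on bright genes 27 miRNA genes were lower and the median over all genes was 0.00. The limma test against a 2-fold threshold called 2123 genes at least 2-fold lower. Leaving out 1 array gave medians of -1.61 to -0.40 for oocyte factors, the one nearest no difference being without ovary 1. Over the 5 fits without 1 array, the difference crossed 0 for 10 named genes that were not called: Amhr2 (-0.05 to 1.21), Btg4 (-0.85 to 0.90), Cpeb1 (-0.89 to 0.40), Cstf2 (-0.10 to 0.36), Cyp17a1 (-0.51 to 1.46), Nanos3 (-0.01 to 0.34), Nlrp14 (-0.01 to 2.10), Pappa (-0.51 to 1.47), Taf4b (-0.65 to 0.85) and Vwf (-0.38 to 0.30), the last at 0.02 with quantile normalization and 0.11 with centring on bright genes. Rn7sk was 0.19 with quantile normalization and 0.04 with centring. Except for the filter, the cause was not tested. The replicate numbers were not treated as pairs in the main fit, and with them as a replicate block 11433 genes were called. The 2 ovaries limit the precision of every difference, and low levels on the arrays may compress large ones.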
